A study of Homo sapiens with 12 samples.

Results

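The genes of the DNA replication machinery and of deoxynucleotide supply were followed across 2 human lung cell lines and 2 inhibitors. They were 52 genes, taken by symbol from a fixed list, of the 26485 symbols listed in every count file. All 52 passed the filter on low counts, as did 16373 symbols in all. A549 is a lung adenocarcinoma line. BEAS-2B, called B2B as in the study, is a bronchial epithelial line immortalised with a viral T antigen, and both lines were labelled wild type. Cells were exposed for 72 h to 10 µM SR11302, a retinoid used to block the transcription factor AP-1, or to 50 µM SP600125, which inhibits the Jun N-terminal kinases (JNK), or were left untreated (NT). The 6 groups, each of 2 libraries, were A549_SR11302, A549_SP600125, A549_NT, B2B_SR11302, B2B_SP600125 and B2B_NT. Each line was 1 established culture line, so the lines stand for themselves and not for tumour and normal tissue. The labels name no treatment for the controls. The study's figure legends name DMSO, the solvent of both compounds, as the control, and it is not settled here which holds for these libraries.

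Before S phase, the origin recognition complex, CDC6 and CDT1 load a ring of 6 subunits, MCM2 to MCM7, onto origins of replication, which is called licensing. CDC45 and the GINS complex then turn the ring into the active helicase. DNA polymerases alpha, delta and epsilon copy the strands, the PCNA clamp and its RFC loaders keep them on the template, and RPA coats the single strands. Ribonucleotide reductase, thymidylate synthase and thymidine kinase supply the deoxynucleotides, and CAF-1 places histones on the new DNA. Most of these genes are transcribed before and during S phase, and E2F factors, held back by RB family proteins until a cell commits to divide, are their best known activators.

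E2F words in the promoters are shown first, for members whose levels are described below. RefSeq (GRCh38.p14) promoter windows of 300 bases, from 250 bases before the start site to 50 after it, were matched for 45 members. MCM4, MCM5, GINS4, POLD3, DSCC1, RPA2 and RPA3 had no entry. The 3 words TTTGGCGC, TTTCCCGC and TTTCGCGC, which E2F factors bind, were searched on both strands, and the first can overlap the last read on the other strand. At least 1 of them stood in 19 of 45 members (42.2%), and in 961 of 35116 promoters in the RefSeq table (2.74%). The CCAAT word, also on both strands, stood in 57.8% of the members and 34.6% of all promoters. The AP-1 word TGACTCA stood in 0 of 45 members and 4.95% of all promoters. Members were counted by 1 window each and the RefSeq table by all of its entries. Those entries were not limited to tested genes and not matched for GC content. A match is a description of these letters and not evidence of binding. The stretches below, each of 80 bases ending at or before the start site, carry the E2F words in capitals, as read 5′ to 3′ on the strand of the gene, either as the word or as its reverse complement.
MCM6: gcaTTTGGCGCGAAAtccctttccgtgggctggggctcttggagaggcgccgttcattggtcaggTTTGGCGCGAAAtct
CDT1: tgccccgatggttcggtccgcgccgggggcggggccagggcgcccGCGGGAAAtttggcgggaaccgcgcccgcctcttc
GINS2: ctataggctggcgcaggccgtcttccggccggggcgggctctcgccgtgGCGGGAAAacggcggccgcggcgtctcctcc
POLA2: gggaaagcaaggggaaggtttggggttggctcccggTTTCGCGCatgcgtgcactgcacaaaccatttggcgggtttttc
POLE: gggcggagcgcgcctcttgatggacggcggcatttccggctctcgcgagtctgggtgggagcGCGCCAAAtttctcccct
PCNA: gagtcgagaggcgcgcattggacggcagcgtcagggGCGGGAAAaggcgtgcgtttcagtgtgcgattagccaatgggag
TYMS: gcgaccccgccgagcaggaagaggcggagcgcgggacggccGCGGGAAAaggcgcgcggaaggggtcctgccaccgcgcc
They lie at chr2:135876519-135876598 on the minus strand (MCM6), chr16:88803709-88803788 on the plus strand (CDT1), chr16:85688955-85689034 on the minus strand (GINS2), chr11:65261873-65261952 on the plus strand (POLA2), chr12:132687343-132687422 on the minus strand (POLE), chr20:5126638-5126717 on the minus strand (PCNA) and chr18:657573-657652 on the plus strand (TYMS). MCM6 held 4 words, in a pair of overlapping couples, and the other members shown held 1 each in the stretch. POLD1, RRM2, TK1 and FEN1, which had some of the largest changes, held none of the 3 words in the window. Other forms of the E2F word were not searched, so letters in lower case and windows without these words may still hold some. A word was present in 16 of 31 matched members called lower in A549 with SP600125 and in 3 of 14 of the other matched members. PCNA and TYMS, printed above, were not among those called lower.

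The libraries held 13969766 to 24917854 reads in genes. Counts were scaled by library size and TMM factors to CPM, counts at an equal library total, and compared with edgeR's quasi-likelihood F test over all 16373 genes and 12 libraries. To be called, a gene had to have an adjusted p (Benjamini-Hochberg) under 0.05 and a log2 fold change of 0.5 or more in size. The sources do not say whether the 2 libraries of a group came from separate cultures, so p-values measure only the spread between libraries. The summed line markers set the 2 lines apart, and they moved with treatment. The 10 epithelial markers fixed for A549 summed to 21000 and 20920 CPM in A549_SR11302 and 26180 and 26340 CPM in A549_SP600125, against 28830 and 26470 CPM in A549_NT, and to 404.0 to 955.7 CPM in B2B libraries. In A549, 5 of the 10 were called lower with SR11302, and 4 lower and 1 higher with SP600125. The 10 markers fixed for B2B summed to 12240 and 11500 CPM in B2B_SR11302 and 7881 and 9031 CPM in B2B_SP600125, against 21710 and 22110 CPM in B2B_NT, and to 2801 to 4283 CPM in A549 libraries. In B2B, 5 of the 10 were called lower with SR11302 and 9 with SP600125. Without treatment, 9 of the 10 were called lower in A549 than in B2B. TGFBI was the exception, at 1522 and 1430 CPM in A549_NT and 1649 and 1723 CPM in B2B_NT. With SR11302 it had 1936 and 1941 CPM in A549 and 638 and 644 CPM in B2B. B2B_NT replicate 2 had 46.7 CPM of the A549 marker ALDH1A1, whereas B2B_NT replicate 1 had 1.44 CPM. The leukocyte markers PTPRC and CD3E were at or near 0, and the 7 leukocyte markers summed to 7.60 and 7.30 CPM in A549_SP600125, against 54.3 and 49.6 CPM in A549_NT, and to 7.64 to 54.9 CPM in the other libraries. CD68 alone made up most of this sum in A549_NT, at 47.8 and 43.8 CPM. Of the 4 leukocyte markers tested, 2 were called lower with SP600125 in each line and 2 higher with SR11302 in B2B. The 6 endothelial markers summed to 17.2 to 18.4 CPM in A549_SP600125 and 9.41 to 13.5 CPM in B2B_SP600125, against 0.376 to 4.15 CPM in the other libraries. With SP600125, 5 of these 6 were called higher in A549 and 4 in B2B, and the part of all these markers in the results was not tested. Reads in no annotated gene made up 14.6 to 20.1% of tallied reads in the 8 treated libraries and 23.8 to 25.9% in the 4 untreated ones, which cannot be told apart from treatment.

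Replication genes fell in A549 with both inhibitors. In B2B few were called with SR11302, and with SP600125 more were called higher than lower. With SP600125, 34 of 52 members were called lower and 1 higher in A549, where 25.0% and 23.9% of all genes were called lower and higher. The median log2 fold change of the members was -0.68, and that of all genes 0.02. With SR11302, 21 members were called lower and 0 higher in A549, against 13.0% and 14.8% of all genes, with a median of -0.39. In B2B, 5 members were called lower and 15 higher with SP600125, against 22.6% and 21.2% of all genes, with a median of 0.24. With SR11302, 3 B2B members were called each way, against 11.1% lower and 11.4% higher among all genes, with a median of 0.11. The shares called in B2B with SR11302 were thus below the background both ways. With SP600125 in B2B the share called lower (9.6%) was below it and the share called higher (28.85%) above it. The excess of higher calls did not hold with offsets for GC content, described below. That fit called 11 of 52 members higher, near the share of all genes (3106 of 14856). In bulk RNA, fewer cells in S phase and less RNA of these genes per cell cannot be told apart.

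The summed CPM of all 52 members gave the same picture library by library. As a percentage of the mean of the untreated libraries of the line, the sum was 79.3 and 64.2% in A549_SR11302 and 59.2 and 58.2% in A549_SP600125. In B2B it was 109 and 111% in B2B_SR11302 and 112 and 125% in B2B_SP600125. All A549 libraries with an inhibitor lay below the untreated A549 libraries, and all treated B2B libraries lay above the untreated B2B libraries. A549_SR11302 replicate 2 lay lower than replicate 1, and the count of members called lower with SR11302 in A549 was 12 without replicate 2 and 31 without replicate 1. Of the 21 calls, 12 held whichever of the 12 libraries was left out, and of the 34 with SP600125, 30 held. In B2B, 13 of the 15 higher and 2 of the 5 lower calls with SP600125 held. The 9 SR11302 calls that did not hold were CDC6, MCM2, MCM7, CDC45, GINS2, POLA2, POLD1, RFC2 and RNASEH2A, and the 4 SP600125 calls were MCM3, GINS3, POLA1 and RFC3.

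**Figure D1:**
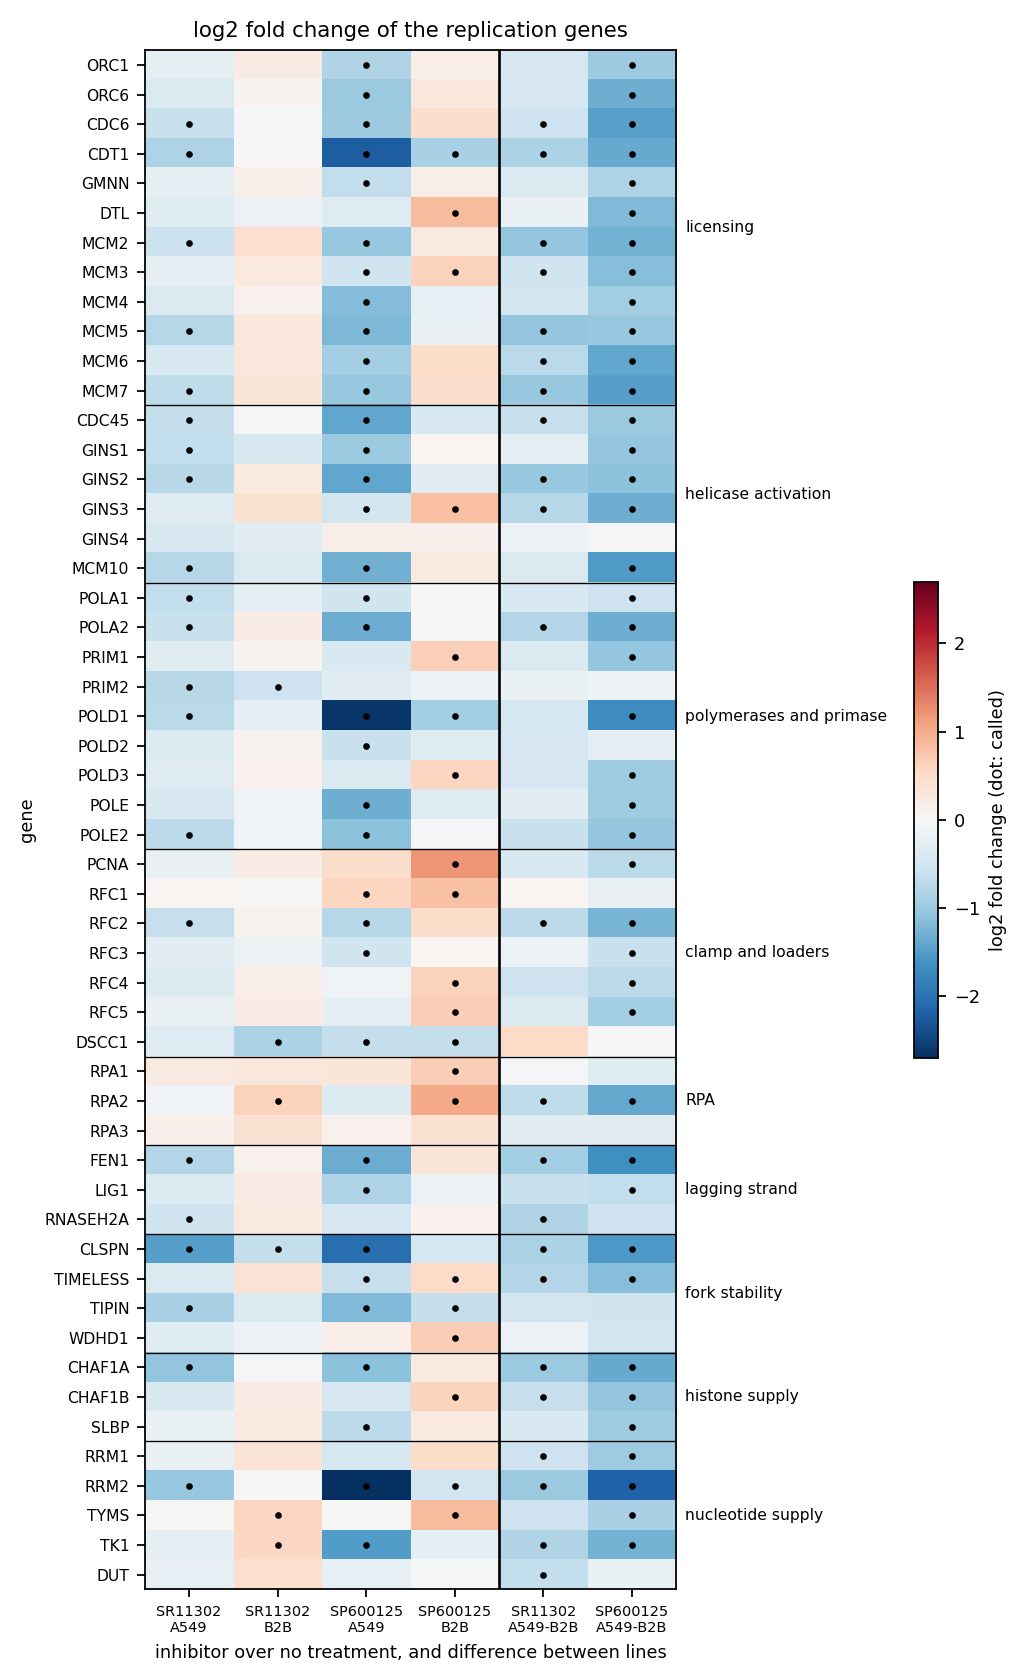
Log2 fold change (colour) of each of the 52 members (vertical axis, grouped by role) for SR11302 or SP600125 over no treatment in A549 and B2B, and for the difference of these effects, A549 minus B2B (horizontal axis). Dots mark calls. The A549 column of SP600125 holds 34 lower calls and 1 higher call, and its B2B column 5 lower and 15 higher. Of all genes, 25.0% and 23.9% were called lower and higher in A549, and 22.6% and 21.2% in B2B.

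**Figure D2:**
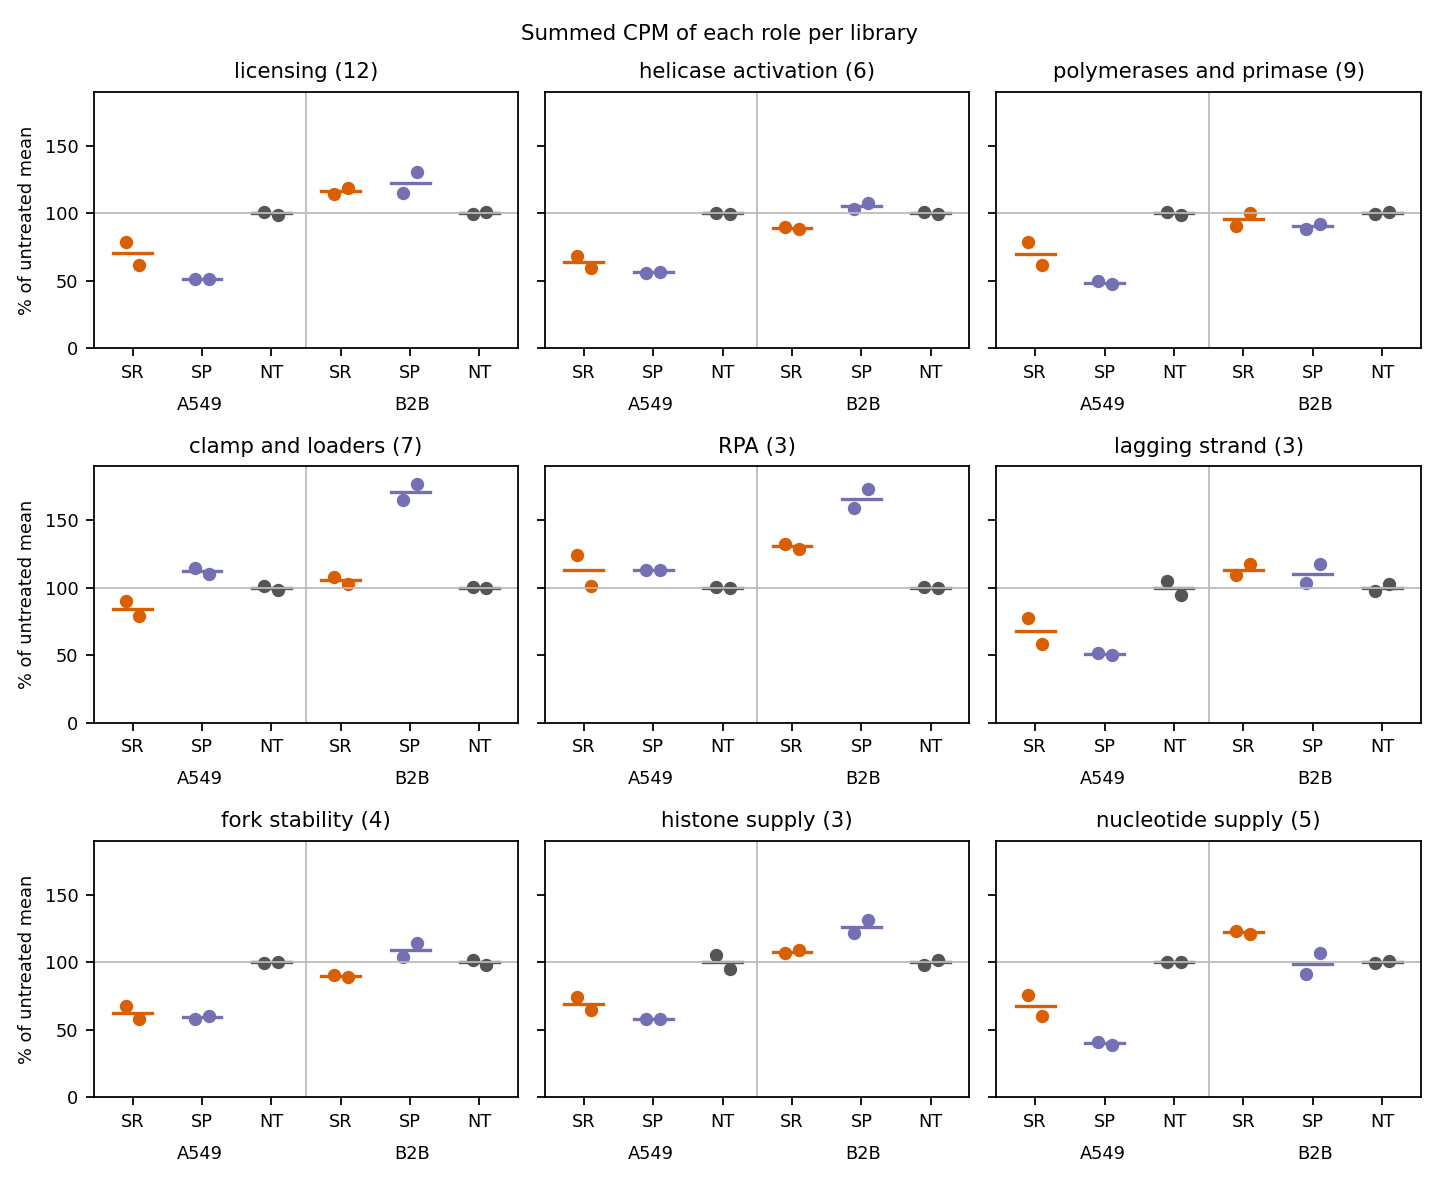
Summed CPM of each role (number of genes in brackets) in each library, in percent of the mean of the untreated libraries of the same line. Points are libraries and bars are means of 2. In A549, licensing stood at 51.1 and 51.1% with SP600125, while the clamp and loaders stood at 115 and 110.5% (89.1 and 86.8% without PCNA).

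Licensing genes were the most uniformly lower in A549 with SP600125, with 11 of 12 called lower and 0 higher and a median log2 fold change of -0.999. Of all genes, 25.0% were called lower and 23.9% higher in that comparison. With SR11302, 5 of 12 were called lower in A549, against 13.0% of all genes. In B2B, SP600125 gave 1 lower call and 2 higher calls (8.33% and 16.7%), below the 22.6% and 21.2% of all genes. SR11302 gave none in either direction in B2B, against 11.1% and 11.4% of all genes. CDT1, the loader of the MCM ring (GENCODE v44 on hg38, chromosome 16, 88803789 to 88809258), had 51.6 and 34.1 CPM in A549_SR11302 and 15.8 and 16.5 CPM in A549_SP600125, against 78.1 and 73.6 CPM in A549_NT. It had 50.4 and 60.4 CPM in B2B_SR11302 and 29.9 and 29.5 CPM in B2B_SP600125, against 51.99 and 57.0 CPM in B2B_NT. The SP600125 libraries lay below the untreated ones in both lines, with the lowest values in A549, and SR11302 lay below only in A549. The log2 fold change was -2.23 ± 0.18 (SE, adjusted p = 3.8e-07) in A549 and -0.88 ± 0.16 (adjusted p = 5.4e-04) in B2B with SP600125. With SR11302 it was -0.83 ± 0.16 (adjusted p = 0.0015) in A549 and 0.02 in B2B. Geminin (GMNN), the protein that binds and blocks CDT1, changed by less, with -0.66 in A549 with SP600125. Per kilobase of transcript, the level of CDT1 over that of GMNN was 0.567 and 0.451 in A549_SR11302 and 0.240 and 0.280 in A549_SP600125, against 0.794 and 0.745 in A549_NT. It was 0.318 and 0.411 in B2B_SR11302 and 0.194 and 0.188 in B2B_SP600125, against 0.379 and 0.407 in B2B_NT. The SP600125 ratios lay below the untreated ones in both lines, and the SR11302 ratios lay below them in A549 and overlapped them in B2B.

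The 6 subunits of the MCM ring were lower in every treated A549 library than in the untreated ones, and in B2B they varied. MCM2 had 123 and 91.8 CPM in A549_SR11302 and 78.8 and 78.5 CPM in A549_SP600125, against 167 and 154 CPM in A549_NT. It had 289 and 329.7 CPM in B2B_SR11302 and 253 and 285 CPM in B2B_SP600125, against 222 and 231 CPM in B2B_NT. All treated MCM2 libraries were below the untreated ones in A549 and above them in B2B. MCM3 had 179 and 135 CPM in A549_SR11302 and 130.0 and 131 CPM in A549_SP600125, against 196 and 182 CPM in A549_NT. It had 309.5 and 331 CPM in B2B_SR11302 and 395 and 421 CPM in B2B_SP600125, against 265 and 268 CPM in B2B_NT. MCM3 libraries did not overlap between treated and untreated cells in either line, below in A549 and above in B2B. MCM4 had 296 and 254 CPM in A549_SR11302 and 159.7 and 160.1 CPM in A549_SP600125, against 358 and 359 CPM in A549_NT. It had 399.9 and 374 CPM in B2B_SR11302 and 275 and 340.1 CPM in B2B_SP600125, against 361 and 357 CPM in B2B_NT. The 2 lines had nearly the same MCM4 level without treatment, and the treated A549 libraries were the lowest except that 1 B2B_SP600125 library lay among them.

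MCM5 had 121 and 85.7 CPM in A549_SR11302 and 72.9 and 77.7 CPM in A549_SP600125, against 181 and 169 CPM in A549_NT. It had 178 and 201 CPM in B2B_SR11302 and 125 and 146 CPM in B2B_SP600125, against 150.0 and 159.9 CPM in B2B_NT. Its 4 treated A549 libraries lay below the untreated ones, and in B2B those with SR11302 lay above them and those with SP600125 below. MCM6 had 202 and 173 CPM in A549_SR11302 and 136 and 130.2 CPM in A549_SP600125, against 242 and 256 CPM in A549_NT. It had 176 and 163 CPM in B2B_SR11302 and 168 and 217 CPM in B2B_SP600125, against 138 and 135 CPM in B2B_NT. The untreated A549 libraries were the highest of the 12 for MCM6. MCM7 had 343 and 251 CPM in A549_SR11302 and 232 and 241 CPM in A549_SP600125, against 496 and 464 CPM in A549_NT. It had 401 and 461 CPM in B2B_SR11302 and 459 and 496 CPM in B2B_SP600125, against 342 and 349 CPM in B2B_NT. MCM7 was below its untreated level in all treated A549 libraries and above it in all treated B2B libraries.

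With SP600125 in A549, the log2 fold changes of the ring were -1.03 ± 0.13 (MCM2), -0.53 ± 0.12 (MCM3), -1.17 ± 0.12 (MCM4), -1.22 ± 0.15 (MCM5), -0.91 ± 0.12 (MCM6) and -1.02 ± 0.13 (MCM7), all called. With SR11302, MCM2, MCM5 and MCM7 were called lower in A549, at -0.58, -0.76 and -0.69, whereas MCM3, MCM4 and MCM6 had -0.27, -0.38 and -0.41. In B2B, MCM3 was the 1 subunit called, at 0.62 with SP600125 (adjusted p = 6.8e-04). Per kilobase, the highest over the lowest subunit was 4.46 and 4.34 in A549_SP600125, against 4.12 and 4.18 in A549_NT. In B2B it was 5.16 and 4.74 in B2B_SP600125, against 3.78 and 3.94 in B2B_NT. The SP600125 values lay above the untreated ones in both lines, by more in B2B. With SR11302 the values overlapped the untreated ones in B2B, at 3.47 and 4.31, and lay just below them in A549, at 3.98 and 4.10.

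**Figure D3:**
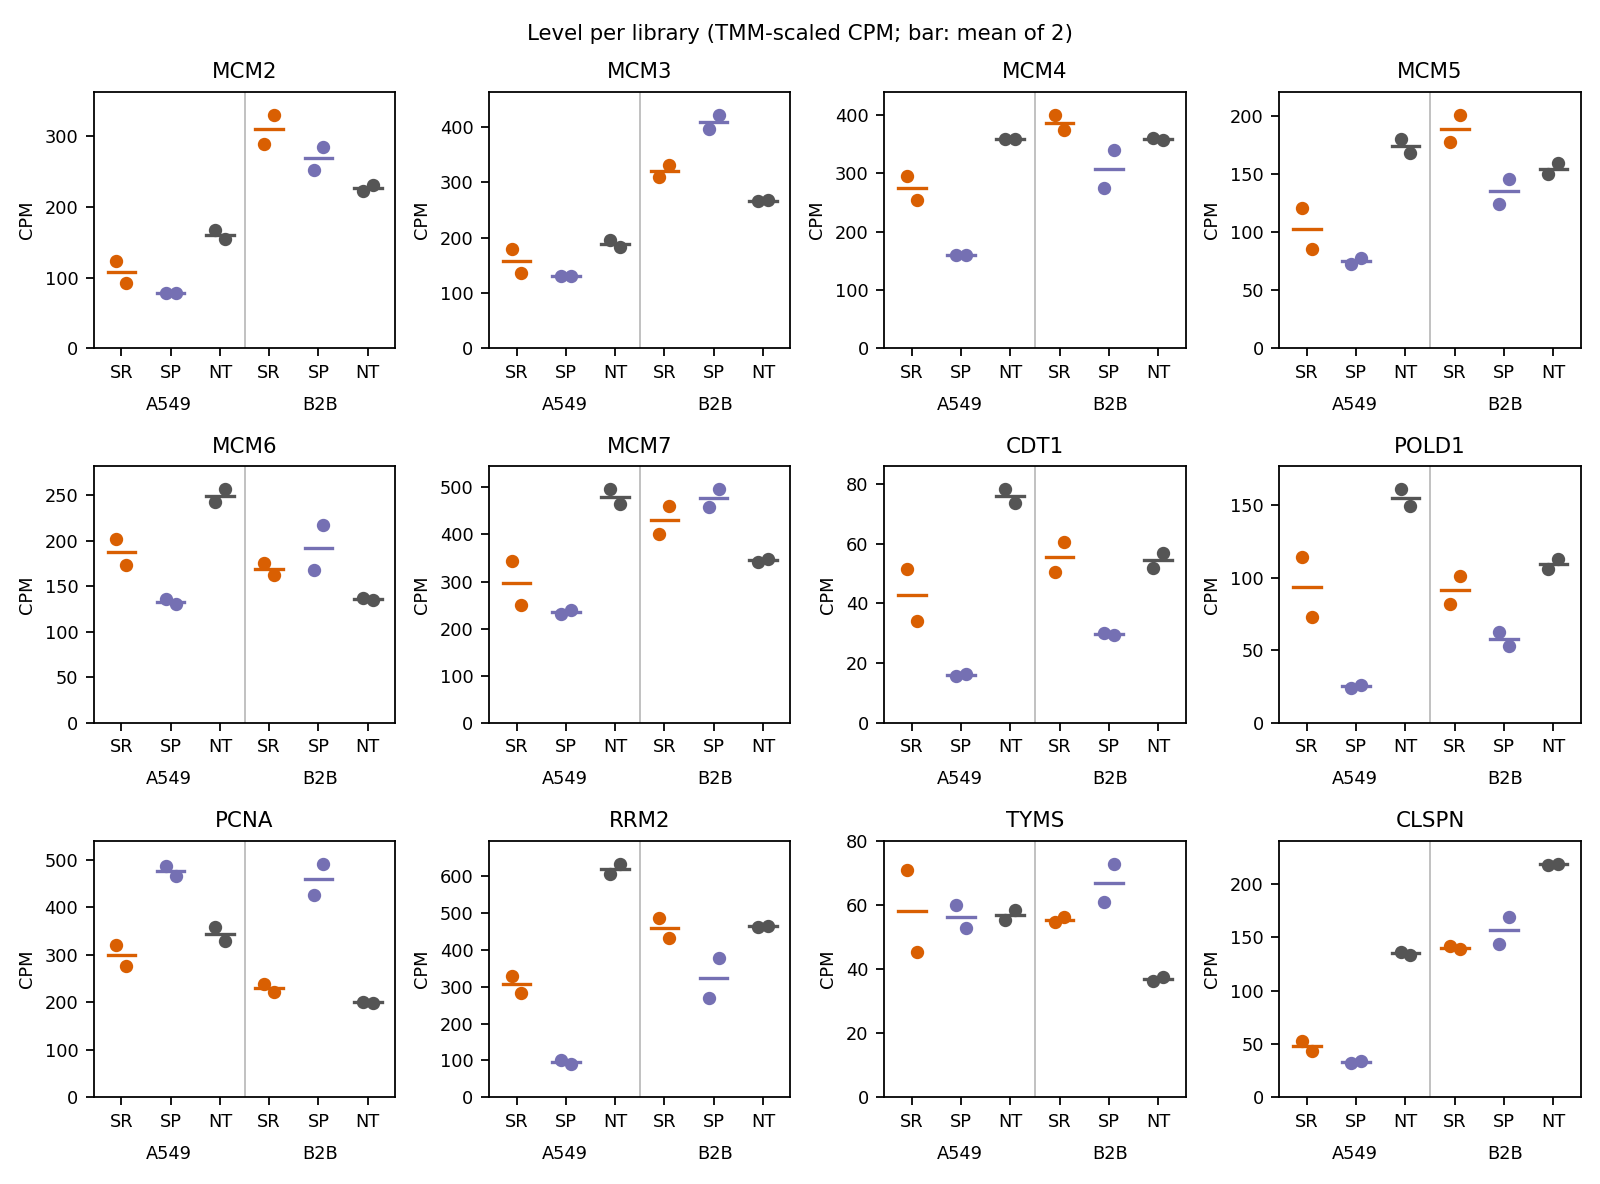
CPM (vertical axes, from 0) of 12 members in each library, by treatment and line (SR, SR11302; SP, SP600125; NT, no treatment). Points are libraries and bars are means of 2. CDT1, POLD1, RRM2 and CLSPN are lowest in A549_SP600125, PCNA is highest with SP600125, and TYMS does not separate in A549.

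Genes that turn the loaded ring into a helicase fell in A549 with either inhibitor. With SP600125, 5 of 6 were called lower and with SR11302 4 of 6, against 25.0% and 13.0% of all genes. In B2B 1 of 6 was called, higher, with SP600125, and this share (16.7%) was below the 21.2% of all genes. GINS2, a subunit of the GINS ring, had 52.4 and 34.7 CPM in A549_SR11302 and 27.5 and 27.9 CPM in A549_SP600125, against 78.0 and 69.2 CPM in A549_NT. It had 44.6 and 46.8 CPM in B2B_SR11302 and 28.9 and 32.5 CPM in B2B_SP600125, against 38.2 and 37.5 CPM in B2B_NT. GINS2 fell to a log2 fold change of -1.41 ± 0.16 with SP600125 in A549 and had -0.30, not called, in B2B. MCM10, a scaffold needed to start unwinding, had 67.6 and 55.8 CPM in A549_SR11302 and 46.0 and 39.7 CPM in A549_SP600125, against 102 and 109.6 CPM in A549_NT. It had 70.7 and 65.8 CPM in B2B_SR11302 and 101 and 109 CPM in B2B_SP600125, against 91.8 and 87.3 CPM in B2B_NT. The 2 SR11302 libraries of MCM10 in A549 lay below the untreated ones, at -0.78 ± 0.12 (adjusted p = 2.4e-04), and SP600125 gave -1.30 ± 0.12 (adjusted p = 1.5e-06).

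GINS3, another subunit of the ring, was the 1 gene of this role called in B2B. It had 23.1 and 18.7 CPM in A549_SR11302 and 17.4 and 20.3 CPM in A549_SP600125, against 27.2 and 26.3 CPM in A549_NT. In B2B GINS3 had 34.4 and 32.8 CPM in B2B_SR11302 and 44.5 and 44.2 CPM in B2B_SP600125, against 24.2 and 26.3 CPM in B2B_NT. Treated libraries lay below the untreated ones in A549 and above them in B2B, and the log2 fold change with SP600125 was -0.50 in A549 and 0.81 in B2B. GINS1 had 83.5 and 91.1 CPM in A549_SR11302 and 69.6 and 69.8 CPM in A549_SP600125, against 138 and 140.3 CPM in A549_NT. It had 74.5 and 64.8 CPM in B2B_SR11302 and 93.5 and 99.5 CPM in B2B_SP600125, against 93.7 and 93.2 CPM in B2B_NT. GINS1 had the largest SR11302 value of the role in B2B, -0.42 ± 0.10, which was not called. GINS4, the remaining GINS subunit, was called in neither line, at 0.16 and 0.14 with SP600125.

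Polymerase subunits separated within 1 enzyme. POLD1, the catalytic subunit of polymerase delta (chromosome 19, 50384204 to 50418018), had 114 and 73.0 CPM in A549_SR11302 and 24.3 and 26.1 CPM in A549_SP600125, against 161 and 149 CPM in A549_NT. It had 82.0 and 101 CPM in B2B_SR11302 and 62.4 and 52.8 CPM in B2B_SP600125, against 106 and 113 CPM in B2B_NT. The SP600125 libraries were the lowest in both lines, and A549_SR11302 replicate 2 lay well below replicate 1. With SP600125 the log2 fold change was -2.62 ± 0.19 (adjusted p = 1.9e-07) in A549 and -0.93 ± 0.17 (adjusted p = 5.6e-04) in B2B. With SR11302 it was -0.73 ± 0.17 in A549, called, and -0.26 in B2B. The accessory subunits POLD2 and POLD3 had -0.59 and -0.39 with SP600125 in A549, and POLD2 alone of the pair was called. The ratio of POLD1 to POLD2 per kilobase was 0.117 and 0.127 in A549_SP600125 and 0.406 and 0.368 in A549_SR11302, against 0.492 and 0.506 in A549_NT. In B2B it was 0.269 and 0.226 in B2B_SP600125 and 0.297 and 0.296 in B2B_SR11302, against 0.374 and 0.381 in B2B_NT.

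Of the 9 polymerase and primase genes, SP600125 gave 6 lower calls in A549 and SR11302 gave 5, against 25.0% and 13.0% of all genes. POLE, the catalytic subunit of polymerase epsilon, had -1.32 and POLA2, a regulatory subunit of polymerase alpha, -1.33 with SP600125 in A549, both called. PRIM1, the primase subunit that makes the RNA primer, was called higher in B2B with SP600125, at 0.64. PRIM2, the large subunit, had 14.0 and 15.8 CPM in A549_SR11302 and 20.6 and 20.8 CPM in A549_SP600125, against 24.6 and 25.7 CPM in A549_NT. It had 29.2 and 29.9 CPM in B2B_SR11302 and 38.5 and 40.7 CPM in B2B_SP600125, against 44.5 and 43.1 CPM in B2B_NT. Its SR11302 libraries lay below the untreated ones in both lines, at -0.75 ± 0.12 in A549 and -0.57 ± 0.11 in B2B, both called. Only 59.7% of 75-base transcript windows of PRIM2 were unique in the genome, so its counts may miss or share reads with copies.

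Of the 7 clamp and loader genes, 3 were called lower and 1 higher in A549 with SP600125, against 25.0% and 23.9% of all genes. In B2B 1 was called lower and 4 higher, against 22.6% and 21.2%. Their summed CPM in A549_SP600125 turned on PCNA, being 115 and 110.5% of the untreated mean with it and 89.1 and 86.8% without it, a sum chosen after seeing the data. PCNA, the clamp, had 321 and 277 CPM in A549_SR11302 and 487 and 466 CPM in A549_SP600125, against 358 and 329.9 CPM in A549_NT. It had 238 and 223 CPM in B2B_SR11302 and 426 and 492 CPM in B2B_SP600125, against 201 and 199.5 CPM in B2B_NT. With SP600125 every PCNA library lay above the untreated ones, in A549 as in B2B. The log2 fold change was 0.47 ± 0.11 in A549, under the fold minimum and not called, and 1.19 ± 0.11 (adjusted p = 1.4e-06) in B2B. RFC1, the large subunit of the clamp loader, was called higher in both lines, at 0.59 in A549, which did not hold without each library, and 0.79 in B2B. RFC4 and RFC5, small loader subunits, were called higher in B2B, at 0.61 and 0.66, and not called in A549. RFC2 was the member of the role with the largest fall in A549. It had 59.6 and 40.6 CPM in A549_SR11302 and 47.1 and 42.9 CPM in A549_SP600125, against 78.2 and 74.8 CPM in A549_NT. In B2B it had 82.2 and 92.4 CPM in B2B_SR11302 and 111 and 117 CPM in B2B_SP600125, against 79.4 and 83.0 CPM in B2B_NT. RFC2 had a log2 fold change of -0.61 ± 0.15 with SR11302 and -0.77 ± 0.15 with SP600125 in A549, both called.

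DSCC1, part of an alternative loader that also serves sister chromatid cohesion, fell in B2B with both inhibitors. It had 18.5 and 20.8 CPM in A549_SR11302 and 15.9 and 16.0 CPM in A549_SP600125, against 24.6 and 25.3 CPM in A549_NT. In B2B it had 11.5 and 8.84 CPM in B2B_SR11302 and 10.3 and 13.5 CPM in B2B_SP600125, against 18.7 and 18.1 CPM in B2B_NT. In each line, all treated libraries lay below the untreated ones. The log2 fold change in A549 was -0.34 with SR11302, not called, and -0.65 with SP600125, called. In B2B it was -0.85 ± 0.16 (adjusted p = 0.0016) with SR11302 and -0.63 ± 0.16 (adjusted p = 0.0044) with SP600125, where the SP600125 call was lost on leaving out 1 library.

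RPA1 and RPA2, of the 3 RPA subunits, rose in B2B with SP600125, where 21.2% of all genes were called higher. RPA2, the middle subunit, had 49.3 and 40.6 CPM in A549_SR11302 and 37.3 and 35.1 CPM in A549_SP600125, against 47.6 and 46.5 CPM in A549_NT. In B2B it had 110.0 and 108 CPM in B2B_SR11302 and 136 and 151 CPM in B2B_SP600125, against 70.7 and 71.4 CPM in B2B_NT. SR11302 overlapped the untreated libraries in A549, whereas both inhibitors lay above them in B2B. In B2B the log2 fold change was 1.01 ± 0.11 (adjusted p = 6.1e-06) with SP600125 and 0.62 ± 0.11 (adjusted p = 0.0011) with SR11302, and in A549 neither was called. RPA1, the largest subunit, had 189.7 and 156 CPM in A549_SR11302 and 184 and 182 CPM in A549_SP600125, against 144 and 146 CPM in A549_NT. RPA1 libraries of A549 lay above the untreated ones with either inhibitor, at 0.25 ± 0.10 and 0.34 ± 0.11, which is under the fold minimum. It had 315 and 305 CPM in B2B_SR11302 and 383 and 415 CPM in B2B_SP600125, against 252 and 249 CPM in B2B_NT, and SP600125 gave 0.67 ± 0.10 in B2B, called.

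Of the 3 lagging strand genes, 2 were called lower in A549 with each inhibitor and 0 in B2B. Of all genes, 25.0% (SP600125) and 13.0% (SR11302) were called lower in A549, and 22.6% and 11.1% in B2B. FEN1, the nuclease that trims Okazaki fragments, had 99.8 and 81.5 CPM in A549_SR11302 and 60.5 and 62.9 CPM in A549_SP600125, against 161 and 152 CPM in A549_NT. It had 183 and 188 CPM in B2B_SR11302 and 197 and 229.5 CPM in B2B_SP600125, against 166 and 176 CPM in B2B_NT. The A549 values fell with both inhibitors and the B2B values did not, with a log2 fold change of -1.34 ± 0.12 in A549 and 0.32 ± 0.11 in B2B for SP600125. The B2B change of FEN1 was not called, and 67.7% of its windows were unique. RNASEH2A, the catalytic subunit of RNase H2, had 34.8 and 25.5 CPM in A549_SR11302 and 31.1 and 33.1 CPM in A549_SP600125, against 48.1 and 39.4 CPM in A549_NT. It had 80.1 and 83.9 CPM in B2B_SR11302 and 69.2 and 78.4 CPM in B2B_SP600125, against 66.5 and 69.8 CPM in B2B_NT. RNASEH2A was called lower in A549 with SR11302, at -0.54, and not with SP600125, at -0.45. LIG1, the ligase that seals the fragments, was called lower with SP600125, at -0.83.

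The fork stability genes held the largest SR11302 fall of the 52 members in A549. CLSPN, or claspin, the adaptor that carries the checkpoint signal from ATR to CHK1 (chromosome 1, 35720218 to 35769978), had 52.8 and 43.5 CPM in A549_SR11302 and 31.8 and 34.2 CPM in A549_SP600125, against 136 and 134 CPM in A549_NT. It had 142 and 139 CPM in B2B_SR11302 and 144 and 169 CPM in B2B_SP600125, against 218 and 219 CPM in B2B_NT. All treated libraries lay below the untreated ones in both lines. With SR11302 the log2 fold change was -1.49 ± 0.12 (adjusted p = 9.5e-07) in A549 and -0.64 ± 0.11 (adjusted p = 0.001) in B2B. With SP600125 it was -2.03 ± 0.12 (adjusted p = 5.0e-08) in A549 and -0.48 ± 0.11 in B2B, which is under the fold minimum. TIMELESS and TIPIN form 1 complex at the fork, and in B2B with SP600125 they went apart, with TIMELESS called higher at 0.52 and TIPIN called lower at -0.64. Neither call held without each library. WDHD1, which links the helicase to polymerase alpha, had 61.9 and 66.0 CPM in A549_SR11302 and 89.7 and 89.7 CPM in A549_SP600125, against 74.0 and 85.3 CPM in A549_NT. It had 83.7 and 76.2 CPM in B2B_SR11302 and 136 and 146 CPM in B2B_SP600125, against 93.5 and 84.6 CPM in B2B_NT. WDHD1 was called higher with SP600125 in B2B, at 0.67 ± 0.11, and was not called in A549, at 0.17.

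Of the 3 histone supply genes, 2 were called lower in A549 with SP600125 and 1 with SR11302, against 25.0% and 13.0% of all genes. In B2B 1 was called higher with SP600125, against 21.2%. CHAF1A, the large subunit of CAF-1, had 51.2 and 39.1 CPM in A549_SR11302 and 44.5 and 43.0 CPM in A549_SP600125, against 99.0 and 89.1 CPM in A549_NT. It had 121 and 134 CPM in B2B_SR11302 and 159 and 156 CPM in B2B_SP600125, against 128 and 136 CPM in B2B_NT. The A549 values with either inhibitor did not overlap the untreated ones, at -1.06 ± 0.13 and -1.10 ± 0.13, and neither B2B value was called. CHAF1B, its partner, had 41.1 and 32.1 CPM in A549_SR11302 and 35.4 and 35.7 CPM in A549_SP600125, against 49.0 and 48.1 CPM in A549_NT. It had 69.3 and 68.9 CPM in B2B_SR11302 and 85.6 and 96.2 CPM in B2B_SP600125, against 59.0 and 60.3 CPM in B2B_NT. CHAF1B was called higher in B2B with SP600125, at 0.61 ± 0.12, and was not called in A549, at -0.45. SLBP, which binds the stem-loop of histone mRNAs, had 81.8 and 79.1 CPM in A549_SR11302 and 56.2 and 56.0 CPM in A549_SP600125, against 97.5 and 85.0 CPM in A549_NT, and it had 128 and 122 CPM in B2B_SR11302 and 117 and 138 CPM in B2B_SP600125, against 105 and 108 CPM in B2B_NT. SLBP was called lower in A549 with SP600125, at -0.70. Libraries were enriched for polyadenylated RNA, so the histone mRNAs themselves were not examined here.

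Nucleotide supply held the steepest fall of the 52 members. RRM2, the small subunit of ribonucleotide reductase whose level limits the enzyme in S phase (chromosome 2, 10120698 to 10211725), had 329 and 284 CPM in A549_SR11302 and 100.3 and 90.5 CPM in A549_SP600125, against 606 and 634 CPM in A549_NT. It had 486 and 432 CPM in B2B_SR11302 and 268 and 378 CPM in B2B_SP600125, against 463 and 466 CPM in B2B_NT. In A549 the SP600125 libraries were the lowest and the untreated ones the highest, and in B2B the SP600125 libraries lay below the untreated ones but far from each other. With SP600125 the log2 fold change was -2.70 ± 0.15 (adjusted p = 3.1e-08) in A549 and -0.52 ± 0.14 (adjusted p = 0.0067) in B2B, where the call was lost on leaving out 1 library. With SR11302 it was -1.01 ± 0.14 (adjusted p = 1.2e-04) in A549 and -0.02 in B2B. RRM1, the large subunit that pairs with either small one, had -0.47 in A549 with SP600125 and was not called. Unique windows made up 77.0% of RRM2, so part of its reads may have been left out of the counts.

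RRM2B, a paralog of RRM2 and a known p53 target that supplies nucleotides outside S phase, went the other way. RRM2B is not among the 52 members. It had 109 and 183 CPM in A549_SR11302 and 330.5 and 314 CPM in A549_SP600125, against 53.5 and 72.3 CPM in A549_NT. It had 49.5 and 39.5 CPM in B2B_SR11302 and 96.9 and 90.3 CPM in B2B_SP600125, against 40.9 and 37.4 CPM in B2B_NT. RRM2B rose in A549 with both inhibitors, by 1.22 ± 0.20 and 2.36 ± 0.21 on the log2 scale, and in B2B with SP600125, by 1.26 ± 0.20. Per kilobase, the level of RRM2 over that of RRM2B was 4.41 and 2.27 in A549_SR11302 and 0.444 and 0.422 in A549_SP600125, against 16.6 and 12.8 in A549_NT. In B2B the ratio was 14.4 and 16.0 in B2B_SR11302 and 4.06 and 6.14 in B2B_SP600125, against 16.6 and 18.2 in B2B_NT. A549_SP600125 was the 1 group in which RRM2B exceeded RRM2 per kilobase.

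TYMS and TK1, which both feed the thymidine nucleotide pool, did not move alike. TYMS, thymidylate synthase, had 70.8 and 45.4 CPM in A549_SR11302 and 59.9 and 52.8 CPM in A549_SP600125, against 55.4 and 58.5 CPM in A549_NT. It had 54.7 and 56.0 CPM in B2B_SR11302 and 61.0 and 72.8 CPM in B2B_SP600125, against 36.2 and 37.6 CPM in B2B_NT. TYMS overlapped its untreated libraries in A549 with either inhibitor and rose in B2B, at 0.58 ± 0.17 with SR11302 and 0.86 ± 0.17 with SP600125, the first not without each library. TK1, thymidine kinase, had 175 and 105 CPM in A549_SR11302 and 56.2 and 61.8 CPM in A549_SP600125, against 182 and 153 CPM in A549_NT. It had 358 and 401 CPM in B2B_SR11302 and 218 and 221 CPM in B2B_SP600125, against 250.3 and 266 CPM in B2B_NT. TK1 was called lower in A549 with SP600125, at -1.50 ± 0.18 (adjusted p = 1.4e-05), and called higher in B2B with SR11302, at 0.56 ± 0.18, which did not hold without each library. DUT, which removes dUTP, was called in neither line, at -0.23 and -0.05 with SP600125.

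**Figure D4:**
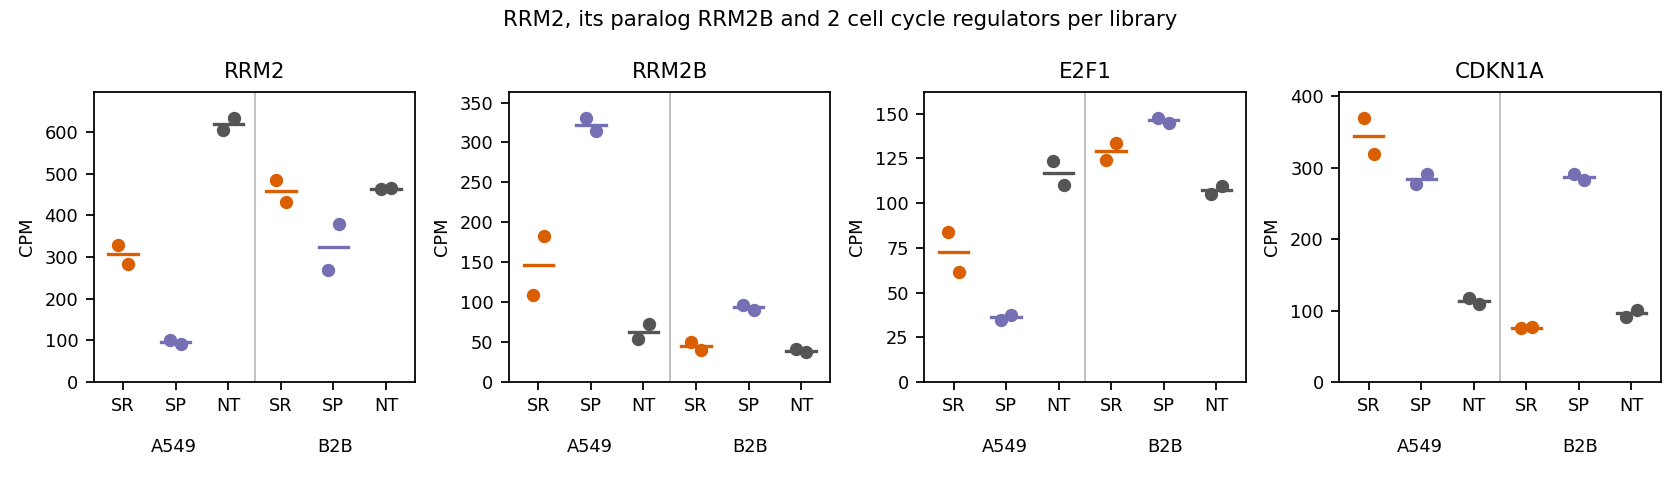
CPM (vertical axes, from 0) of RRM2, RRM2B, E2F1 and CDKN1A in each library, by treatment and line (SR, SR11302; SP, SP600125; NT, no treatment). Points are libraries and bars are means of 2. RRM2 and E2F1 are lowest in A549_SP600125, where RRM2B is highest.

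Whether an inhibitor acted differently in the 2 lines was tested with the interaction of inhibitor and line. For SP600125, the effect was lower in A549 than in B2B for 41 of 52 members and higher for 0, against 13.1% and 12.1% of all genes. All 12 licensing genes were among the 41. For SR11302 it was lower for 23 and higher for 0, against 7.41% and 8.34%. RRM2 had the largest SP600125 difference, -2.18 ± 0.20 (adjusted p = 8.7e-06), followed by POLD1 with -1.70 ± 0.25, FEN1 with -1.66 ± 0.16, CLSPN with -1.55 ± 0.16 and MCM10 with -1.54 ± 0.17. For SR11302 MCM5 had -1.05 ± 0.20 (adjusted p = 0.0032), followed by MCM2 with -1.03 ± 0.18, GINS2 with -1.03 ± 0.22, MCM7 with -1.01 ± 0.19 and CHAF1A with -1.01 ± 0.17. Leaving out 1 library gave 36 to 43 members for SP600125 and 13 to 38 for SR11302. The lowest SR11302 counts came without replicate 1 of A549_NT or of B2B_NT (13 each) and without replicate 2 of B2B_SR11302 or of B2B_NT (15 each), and the highest without A549_SR11302 replicate 1.

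With SP600125, 28 members were below 0 in A549 and above 0 in B2B, 18 were below 0 in both, and 31 of the 34 members called lower in A549 were also called in the interaction. With SR11302 these counts were 30, 18 and 14 of 21. CDT1, POLD1, DSCC1, TIPIN and RRM2 were called lower in both lines with SP600125, and PRIM2 and CLSPN with SR11302. Across the 52 genes, the effects in the 2 lines, which share no control libraries, had a Pearson r of 0.73 and a Spearman rho of 0.71 with SP600125 and 0.51 and 0.48 with SR11302. These describe genes of the same libraries, which are not independent, and carry no test. Genes that fell most in A549 tended to be the lowest in B2B too, with most of the B2B values shifted up.

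**Figure D5:**
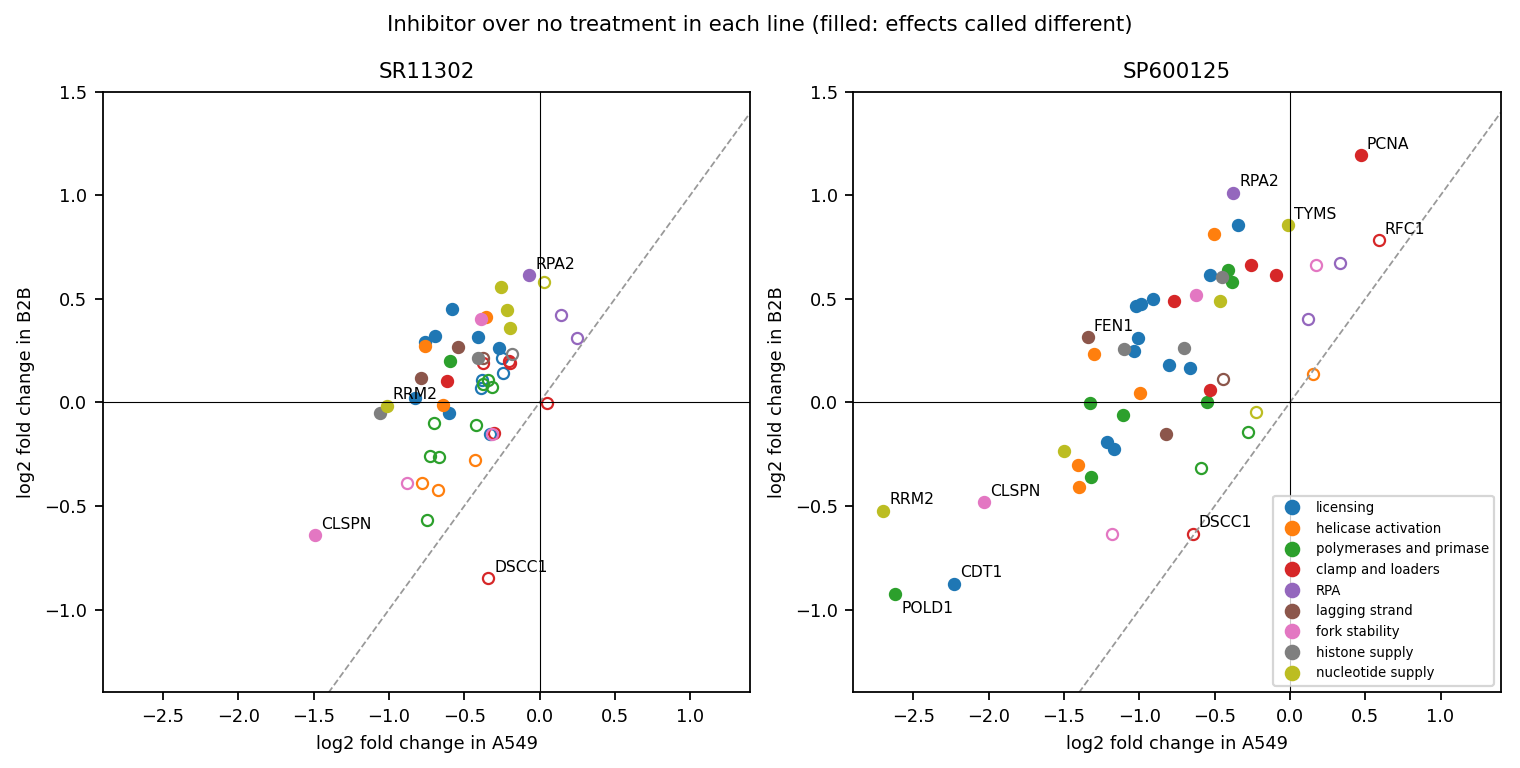
Log2 fold change over no treatment in A549 (horizontal) and in B2B (vertical) for each of the 52 members, by role, with SR11302 on the left and SP600125 on the right. The dashed line marks equal effects, and filled points are the 23 and 41 members whose effects were called different between the lines.

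Both inhibitors of a line were compared with the same untreated libraries, so their effects were also set against each other directly, at doses that differ (50 µM SP600125 and 10 µM SR11302). In A549, 15 members were called lower and 3 higher with SP600125 than with SR11302, against 20.5% and 16.6% of all genes. POLD1 had -1.89 ± 0.19, RRM2 -1.69 ± 0.15, CDT1 -1.41 ± 0.17 and TK1 -1.25 ± 0.18, while PCNA had 0.67 ± 0.11. In B2B, 5 were called lower and 7 higher, against 18.1% and 15.6%. The A549 count of lower calls was 8 without A549_SR11302 replicate 1 and 24 without replicate 2. This contrast holds treated libraries on both sides, and their shares of reads in no annotated gene differed too. They were 16.7 and 20.1% in A549_SR11302 and 16.95 and 17.7% in A549_SP600125. In B2B they were 14.6 and 14.7% in B2B_SR11302 and 15.1 and 15.1% in B2B_SP600125. The part of these shares in the contrast was not tested.

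Without treatment, the lines differed in single genes and not in the whole set. In A549 over B2B, 8 members were called lower and 8 higher, against 26.5% and 30.4% of all genes, both of which exceed the members' shares, and the median was -0.06. The summed CPM of the 52 genes was 6613 and 6469 in A549_NT and 6507 and 6572 in B2B_NT. GINS2 was higher in A549, at 0.96 ± 0.16, and so was MCM6, at 0.87 ± 0.12, while RFC1 was lower, at -1.19 ± 0.10. Per kilobase of transcript, the highest mean levels in A549_NT were those of PCNA (269.5 CPM per kb), MCM7 (194) and RRM2 (190.2), and in B2B_NT those of TK1 (180.4), PCNA (157) and RRM2 (142). In A549_SP600125 PCNA stood at 374 CPM per kb, MCM7 at 95.8, and CLSPN was lowest of the 52 at 3.88.

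Other genes of the pathway were taken from lists written for this work. Of 34 further replication factors, 11 were called lower and 4 higher with SP600125 in A549, where 25.0% and 23.9% of all genes were. With SR11302 in A549, 7 were called lower and 0 higher, against 13.0% and 14.8% of all genes. In B2B 5 were called lower and 9 higher with SP600125, against 22.6% and 21.2%, and 3 each way with SR11302, against 11.1% and 11.4%. UHRF1, which brings the DNA methyltransferase to new DNA, had the largest fall in A549, with 41.3 and 27.9 CPM in A549_SR11302 and 10.8 and 8.06 CPM in A549_SP600125, against 107 and 111 CPM in A549_NT. It had 103 and 113 CPM in B2B_SR11302 and 56.9 and 61.0 CPM in B2B_SP600125, against 190.2 and 185 CPM in B2B_NT. UHRF1 fell in all 4 comparisons, with log2 fold changes of -1.66 (SR11302) and -3.53 (SP600125) in A549 and -0.80 and -1.67 in B2B. CHTF18, a subunit of the alternative clamp loader, likewise fell in all 4, with -2.35 in A549 and -1.72 in B2B for SP600125. Of 23 further nucleotide enzymes, 9 were called lower and 3 higher in A549 with SP600125, against the same 25.0% and 23.9% of all genes, and 9 and 4 in B2B, against 22.6% and 21.2%. With SR11302, 3 were called lower and 5 higher in A549, against 13.0% and 14.8%, and 3 each way in B2B, against 11.1% and 11.4%.

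Of 22 E2F and RB regulators, 10 were called lower and 5 higher with SP600125 in A549, where 25.0% and 23.9% of all genes were, so that the higher calls were near the background. In B2B SP600125 gave 1 lower and 8 higher, against 22.6% and 21.2%. With SR11302, 6 were called lower and 5 higher in A549 and 1 lower and 2 higher in B2B, against 13.0% and 14.8% of all genes in A549 and 11.1% and 11.4% in B2B. E2F1, an activator of S phase genes, had 84.0 and 61.5 CPM in A549_SR11302 and 34.9 and 37.2 CPM in A549_SP600125, against 123 and 109.9 CPM in A549_NT. It had 124 and 134 CPM in B2B_SR11302 and 148 and 145 CPM in B2B_SP600125, against 105 and 109.7 CPM in B2B_NT. E2F1 fell in A549, with a log2 fold change of -0.68 ± 0.13 with SR11302 and -1.69 ± 0.14 with SP600125, and had 0.26 and 0.44 in B2B, not called. RBL2, or p130, an RB family protein of resting cells, rose with SP600125 in both lines, at 1.73 in A549 and 1.32 in B2B. CDKN1A, or p21, the cyclin-dependent kinase inhibitor induced by p53, had 369.6 and 319 CPM in A549_SR11302 and 277 and 291 CPM in A549_SP600125, against 117 and 109.5 CPM in A549_NT. It had 75.4 and 76.6 CPM in B2B_SR11302 and 292 and 283 CPM in B2B_SP600125, against 90.8 and 101 CPM in B2B_NT. CDKN1A rose in A549 with both inhibitors, at 1.60 ± 0.11 and 1.32 ± 0.10, and in B2B with SP600125, at 1.58 ± 0.11. The part of these regulators in the change of the members was not tested.

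MKI67, which marks cycling cells, had 1145 and 865 CPM in A549_SR11302 and 457 and 422 CPM in A549_SP600125, against 1132 and 1284 CPM in A549_NT. It had 1690 and 1619 CPM in B2B_SR11302 and 1424 and 1224 CPM in B2B_SP600125, against 1286 and 1248 CPM in B2B_NT. The log2 fold change of MKI67 with SP600125 was -1.46 ± 0.14 in A549, called, and 0.06 in B2B, and with SR11302 -0.27 in A549 and 0.39 in B2B, not called. The level of MKI67 thus moved with the members in A549 with SP600125, and its part in their change was not tested. TOP2A, 1 of the 34 further replication factors, went the other way. It had 1325 and 1198 CPM in A549_SP600125, against 804 and 957 CPM in A549_NT. In B2B it had 1638 and 1324 CPM in B2B_SP600125, against 923 and 930.5 CPM in B2B_NT.

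Base composition moved with the fold changes. Across the 14856 tested genes with a GC value, the log2 fold change of SP600125 in A549 had a Spearman rho of -0.39 with transcript GC content, and across the 52 members one of -0.39. Across the members rho was -0.56 for the SR11302 interaction, -0.54 for SP600125 over SR11302 in B2B and 0.42 for SR11302 in B2B. The members' median GC content was 46.9%, and that of all tested genes 48.6%. GC content was 64.3% in CDT1 and 43.6% in GMNN, and 64.8% in POLD1, 59.4% in POLD2 and 42.6% in POLD3. Of the other members called lower in both lines with SP600125, DSCC1 had 39.35%, TIPIN 40.7% and RRM2 42.1%. The part of GC content in the CDT1 and POLD1 ratios was not tested. With offsets for GC content, 41 members were called lower and 0 higher with SP600125 in A549, against 3265 and 3041 of 14856 genes. With SR11302 in A549 these counts were 27 and 0, against 2164 and 2054 genes. In B2B SP600125 gave 5 and 11, against 3119 and 3106 genes. Among the 39 members with at least 95% unique windows, SP600125 gave 26 lower calls and 1 higher call in A549, against 25.0% and 23.9% of all genes. It gave 2 and 11 in B2B, against 22.6% and 21.2%, and SR11302 gave 14 and 0 in A549, against 13.0% and 14.8%.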

How the data were processed

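RNA was sequenced from A549 and B2B cells, 2 libraries in each of 6 groups. The authors extracted RNA with TRIzol, treated it with DNase I, prepared libraries with a kit for polyadenylated mRNA, aligned reads to hg38 with STAR (version 2.7.10a) and used HTSeq (version 1.99.2) to count them. The authors deposited the counts per gene symbol, not normalized. Reads aligned to several places or overlapping more than 1 gene are left out by HTSeq, and these tallies were kept out of library sizes. How HTSeq treated strand, and with which annotation, is not given in the sources used here, so overlapping and antisense genes may share reads.

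All 12 libraries were fitted in 1 model with 6 groups and no covariate, with 6 residual degrees of freedom, using edgeR (version 4.0.16, R version 4.3.3), filterByExpr, TMM and the quasi-likelihood F test. P-values were adjusted over all 16373 genes tested. Calls needed an adjusted p under 0.05 and a log2 fold change of 0.5 or more in size, as in the study. Standard errors are the log2 fold change over the root of its F statistic. Levels per kilobase used the length of the MANE Select transcript in GENCODE v44 (hg38), to which 23161 of 26485 symbols were matched. Unique shares are those of 75-base transcript windows, taken every 15 bases, with no match elsewhere in the hg38 genome. Up to 2 mismatches were allowed (minimap2 version 2.31-r1302).

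Alternatives were library size scaling, upper quartile scaling, DESeq2 (version 1.42.0), other filters, no fold minimum, the groups of a comparison alone, a replicate block, GC offsets, members with at least 95% unique windows, and leaving out each library. The members, lists and tests were chosen with earlier results of these data known. Genes given per library were, for each role and inhibitor comparison, the called member with the largest change, or the largest where none was called, and always MCM2 to MCM7, PCNA, RRM2, TYMS, CDT1 and POLD1. Up to 5 called differences per direction were named for each interaction, and up to 4 called genes per list of non-members, with RRM2B, E2F1, CDKN1A and MKI67 always. TOP2A was named outside this rule. Not every non-member that the rule allows is reported here.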

Additional observations from a re-analysis of the deposited data

Results flagged for a closer look

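The effect of an inhibitor differed between the lines, by the interaction test in edgeR, for many members. The SR11302 effect was lower in A549 than in B2B for 23 members and the SP600125 effect for 41, against 7.41% and 13.1% of all genes. The SR11302 differences on the log2 scale were -1.05 for MCM5, -1.03 for MCM2, -1.03 for GINS2, -1.01 for MCM7 and -1.01 for CHAF1A. The SP600125 differences were -2.18 for RRM2, -1.70 for POLD1, -1.66 for FEN1, -1.55 for CLSPN and -1.54 for MCM10. Single libraries were not tested for standing apart, since each group has 2. The 2 libraries of A549_SR11302 were the least alike, with a chi-square per gene between their counts, given their totals, of 42.25, against 2.505 to 12.9 in the other 5 groups.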

How the results depend on the processing

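Of 9360 single member values under 20 of the 22 alternatives (no fold minimum and the members with unique windows were counted over the list alone), 8922 kept their side of the threshold, 236 lost the call, 202 gained one and 0 changed sign while called. Values called in neither fit were counted among the 8922 whatever their sign. Fits that left out a library from outside the comparison were counted too. Counts below are of members, and those after the word against are of all 16373 genes tested unless another total is given. Without the fold minimum, lower calls were 33 against 2797 (SR11302 in A549), 6 against 2257 (SR11302 in B2B), 8 against 4307 (SP600125 in B2B), 15 against 5152 (A549 over B2B), 24 against 3989 (SP600125 over SR11302 in A549) and 10 against 3577 (the same in B2B). Higher calls were 10 against 2578 (SR11302 in B2B), 3 against 4789 (SP600125 in A549), 13 against 5704 (A549 over B2B), 5 against 3654 (SP600125 over SR11302 in A549) and 19 against 3566 (the same in B2B). Library size alone moved the median of all genes to 0.14 (SR11302 in A549), 0.15 (SP600125 in B2B) and -0.07 (A549 over B2B). With it, lower and higher calls were 2 and 5 against 1495 and 2345 (SR11302 in B2B), 30 and 2 against 3731 and 4346 (SP600125 in A549), 2 and 21 against 3071 and 4444 (SP600125 in B2B), 13 and 6 against 5018 and 4445 (A549 over B2B) and 4 and 10 against 2645 and 2954 (SP600125 over SR11302 in B2B). With GC offsets, over 14856 genes, SP600125 gave 0 higher calls in A549 against 3041 and 11 in B2B against 3106. SP600125 over SR11302 in B2B gave 3 lower calls against 2326, and the SR11302 interaction 35 against 1476. With at least 95% unique windows, which leaves 39 members, there were 2 lower calls against 3696 for SP600125 in B2B, 5 higher calls against 4977 for A549 over B2B and 2 lower calls against 2961 for SP600125 over SR11302 in B2B. Fitting the groups of the comparison alone gave 14 against 732 of 16079 genes for the SR11302 interaction. Leaving out 1 library, where the lone library of a group is assumed to vary like the other groups, gave 12 to 31 lower calls (SR11302 in A549), 3 to 4 lower and 1 to 3 higher (SR11302 in B2B, 1 higher without B2B_SR11302 replicate 2 or either B2B_NT library), 32 to 34 lower and 1 to 2 higher (SP600125 in A549, 2 higher without A549_SP600125 replicate 2), 3 to 6 lower and 13 to 18 higher (SP600125 in B2B, 3 lower without B2B_SP600125 replicate 1), 7 to 12 lower and 7 to 10 higher (A549 over B2B), 8 to 24 lower and 3 to 4 higher (SP600125 over SR11302 in A549), 3 to 7 lower and 5 to 10 higher (the same in B2B, 3 lower without B2B_SR11302 replicate 2 or B2B_SP600125 replicate 1), and 13 to 38 (SR11302) and 36 to 43 (SP600125) in the interactions. Replicate numbers did not pair the libraries (correlations of same-numbered deviations from -0.256 to 0.240). A fit with the replicate block gave 20 members against 1061 for the SR11302 interaction and the same member counts elsewhere. The cause of these shifts was not tested. With 2 libraries in a group, 1 library can decide a call.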
